A study of Mus musculus with 6 samples.

Results

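The genes examined were the 3 lamin genes (Lmna, Lmnb1 and Lmnb2), the lamin B receptor gene Lbr and the 4 HMG genes Hmga1, Hmga2, Hmgb1 and Hmgb2. They were chosen by name, as 8 of 21938 protein-coding genes, for the part their proteins have in the chromatin of senescent cells. All ATAC-seq regions within a gene or 20 kb of it were taken, which gave 91 of 170532 regions, and all Tfcp2l1 ChIP-seq peaks within 200 kb of a transcription start site (TSS). The cells were C57BL/6J mouse embryonic fibroblasts (MEFs), for ATAC-seq from E13.5 embryos. The 4 ATAC-seq libraries were labelled Norm-Pro (20% oxygen, passage 1), Norm-Sen (20% oxygen, senescent), Hyp-Pro (3% oxygen, passage 1) and Hyp-Imm (3% oxygen, immortalized). The 2 ChIP-seq libraries, made with an antibody to the transcription factor Tfcp2l1, came from senescent MEFs in 20% oxygen and from immortalized MEFs in 3% oxygen. Each condition had 1 library, so no replicate error exists and no difference between conditions was tested.

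Lamins are intermediate filament proteins that line the inside of the nuclear envelope. Lamins A and C, from Lmna, and the B-type lamins, from Lmnb1 and Lmnb2, anchor silent chromatin at the nuclear edge, and the lamin B receptor is a membrane protein that tethers heterochromatin there. A fall of lamin B1 is widely used as a mark of senescence in cultured cells. The HMGA proteins bind the minor groove of AT-rich DNA and are found in the heterochromatin foci of senescent cells, whereas the HMGB proteins bend DNA through HMG boxes, and HMGB1 also acts outside the cell as an alarm signal. ATAC-seq reads whether the DNA of such a gene is open to the Tn5 transposase, not how much of its protein is made.

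The condition in a file's name did not match the sample label in any of the 4 ATAC-seq libraries. Norm-Pro by its label was Hyp-Imm by its file name, and Norm-Sen was Hyp-Pro. In the same way Hyp-Pro was Norm-Pro and Hyp-Imm was Norm-Sen. Labels were used throughout, and every direction below holds for the labelled libraries only. The libraries held from 37770 peaks (Hyp-Imm) to 69122 peaks (Norm-Pro). The X chromosome held 1.08% of the peaks for Norm-Pro and 1.44% for Hyp-Imm, but 4.44% for Norm-Sen and 4.76% for Hyp-Pro. A tag in the peak names read 1h for the libraries labelled Norm-Pro and Norm-Sen and 25 for the other two, so that whatever it stands for cannot be told apart from oxygen. Of 13 fibroblast and mesenchyme markers, 8 had a promoter peak in either library labelled as normoxic, 7 in Hyp-Pro and 4 in Hyp-Imm, with Fn1, Vim, Col1a2 and Twist1 open in all 4 and Col3a1, Prrx1 and Lum in none. Epithelial markers were open in 1 or 2 of 5 genes in each library and blood markers in 0 to 2 of 5. Endothelial markers were open in 1 or 2 of 4 genes. The range was 1 to 3 of 5 for neural markers, highest for Norm-Pro, and 0 to 1 of 3 for skeletal muscle. Among all protein-coding genes the share with a promoter peak ran from 35.5% (Hyp-Imm) to 54.8% (Norm-Pro). Whether any of these small marker sets differed from that share was not tested.

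The height of a peak is given as the number of reads at its summit, solved from the deposited columns. Relative height divides it by the median over the 5270 regions found in all 4 libraries, which was 21 reads for Norm-Pro and 22 for Norm-Sen, against 17 for Hyp-Pro and 10 for Hyp-Imm. Intervals are 95% exact intervals, Poisson for a read count and conditional binomial for a ratio of 2 counts, and cover counting error only. Scaling to the genome-wide background of each library instead shifts every log2 ratio of a pair by the same amount, by 0.45 for Norm-Pro over Norm-Sen, −0.34 for Hyp-Pro over Hyp-Imm, −0.069 for Norm-Pro over Hyp-Pro, −0.85 for Norm-Sen over Hyp-Imm and −0.51 for Norm-Sen over Hyp-Pro. Directions that turn under it are named beside the values. Rank percent is the place of a peak by −log10 q among all peaks of its library, so that small values are strong peaks. Where 4 values stand in a row, the first pair is Norm-Pro and Norm-Sen and the second pair Hyp-Pro and Hyp-Imm.

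The sequences that carry the open regions are shown first, from GRCm38 and read 5′ to 3′ on the strand of the gene. RefSeq promoters of 300 bases (250 before and 50 after the start) were found for 7 of the 8 genes, 11 promoters in all. The CCAAT box, which binds the factor NF-Y in many genes of the cell cycle, stood in 4 of the 11 promoters and in 37.4% of all 32851 promoters. The Hmgb2 promoter held 4 CCAAT boxes, a number reached by 1.06% of all promoters. The Hmgb1 promoter held 3, reached by 3.37%, and the Lbr promoter 2, reached by 11.7%. Capitals mark each CCAAT box and each GC box (GGGCGG), on either strand, in the bases before the start.
Hmgb2, chr8:57511593-57511842, plus strand: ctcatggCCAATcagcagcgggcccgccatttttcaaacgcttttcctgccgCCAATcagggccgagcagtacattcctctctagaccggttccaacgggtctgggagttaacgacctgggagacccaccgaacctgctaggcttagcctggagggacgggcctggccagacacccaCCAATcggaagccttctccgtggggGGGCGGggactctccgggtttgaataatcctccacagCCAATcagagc
Hmgb1, chr5:149053058-149053260, minus strand: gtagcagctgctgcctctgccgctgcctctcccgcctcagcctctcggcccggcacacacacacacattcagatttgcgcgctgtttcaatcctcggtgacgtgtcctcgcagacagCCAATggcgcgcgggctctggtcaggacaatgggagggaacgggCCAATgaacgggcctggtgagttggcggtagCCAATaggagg
Lbr, chr1:181842402-181842651, minus strand: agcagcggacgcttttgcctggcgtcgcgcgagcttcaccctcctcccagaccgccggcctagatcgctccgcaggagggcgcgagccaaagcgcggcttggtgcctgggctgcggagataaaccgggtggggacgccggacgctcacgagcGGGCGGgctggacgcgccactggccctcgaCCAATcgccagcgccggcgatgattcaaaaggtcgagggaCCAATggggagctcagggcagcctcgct

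Lmna has 3 separate open promoters. Their sequences are shown because the order of the libraries by relative height was not the same at each, a difference that was not tested. Capitals again mark CCAAT and GC boxes. The upstream one held 3 GC boxes in the 250 bases before the start, as 8.47% of all promoters did. GC boxes stood in 8 of the 11 RefSeq promoters of the members and in 35.7% of all promoters.
Lmna upstream promoter, chr3:88509957-88510206, minus strand: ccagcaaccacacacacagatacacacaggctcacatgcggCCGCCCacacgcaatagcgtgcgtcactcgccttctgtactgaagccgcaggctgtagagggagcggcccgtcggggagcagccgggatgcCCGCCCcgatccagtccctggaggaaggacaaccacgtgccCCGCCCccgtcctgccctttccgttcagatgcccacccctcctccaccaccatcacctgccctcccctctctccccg
Lmna middle promoter, chr3:88503387-88503602, minus strand: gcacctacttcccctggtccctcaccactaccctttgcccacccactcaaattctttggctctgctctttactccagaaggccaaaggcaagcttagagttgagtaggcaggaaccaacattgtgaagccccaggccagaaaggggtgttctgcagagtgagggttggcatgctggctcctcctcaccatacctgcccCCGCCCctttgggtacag
Lmna inner promoter, chr3:88493313-88493562, minus strand: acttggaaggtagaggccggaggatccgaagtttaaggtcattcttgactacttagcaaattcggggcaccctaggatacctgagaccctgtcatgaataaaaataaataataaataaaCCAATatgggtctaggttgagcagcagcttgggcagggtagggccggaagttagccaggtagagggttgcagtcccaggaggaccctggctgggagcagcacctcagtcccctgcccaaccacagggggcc

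The other motifs were sparse in the 11 promoters, on both strands. None held the CRE (TGACGTCA), present in 1.79% of all promoters, and none held an E2F site (TTTGGCGC, TTTCCCGC, TTTGCCGC or TTTCGCGC), present in 2.26%. The CHR element (TTTGAA), known from genes of the late cell cycle, stood in 2 of the 11, those of Hmgb2 and Lbr, and in 17.9% of all promoters. The AP-1 site (TGANTCA) stood in 2, those of Lbr and the middle Lmna promoter (7.81% of all). The hypoxia response core (ACGTG) stood in 2, both of Hmgb1 (19.6%). It also stood at 1 place, where both strands read it, in the upstream Lmna promoter printed above, which is not among the 11. The ETS site (CCGGAAG) stood in 2 (8.86%) and the YY1 site (AAGATGG) in 1, of Lmnb2 (6.34%). The Tfcp2l1 consensus, with at most 2 mismatches, stood in the Hmgb2 promoter and in 1.41% of all promoters. No Tfcp2l1 ChIP-seq peak lay within 200 kb of a Hmgb2 TSS in either library.

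Tfcp2l1 ChIP-seq peaks lay near 3 of the 8 genes. The library from senescent MEFs had 1 peak, near Hmgb1, of 393 in all, and that from immortalized MEFs had 4 peaks of 612, 2 near Hmgb1, 1 in Lmnb2 and 1 near Lbr. Of all protein-coding genes 8.48% had such a peak in the senescent library and 12.4% in the immortalized one. The one peak found in both libraries lay 44.6 kb before the 5′ end of Hmgb1 and covered the tRNA gene n-TNgtt14. Its shared part is printed with the tRNA gene in capitals. The 3 peaks of the immortalized library alone follow, and capitals mark a match to the Tfcp2l1 consensus with 2 mismatches in the one that has it.
Hmgb1, shared peak, chr5:149228946-149229208, minus strand: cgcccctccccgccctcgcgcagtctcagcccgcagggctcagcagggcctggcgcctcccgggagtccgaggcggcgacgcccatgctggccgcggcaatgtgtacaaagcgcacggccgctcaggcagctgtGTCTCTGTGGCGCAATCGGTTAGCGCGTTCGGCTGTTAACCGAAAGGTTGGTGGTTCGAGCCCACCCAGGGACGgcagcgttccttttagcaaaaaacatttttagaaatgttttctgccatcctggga
Hmgb1, distal peak in Alox5ap, chr5:149286570-149286750, minus strand: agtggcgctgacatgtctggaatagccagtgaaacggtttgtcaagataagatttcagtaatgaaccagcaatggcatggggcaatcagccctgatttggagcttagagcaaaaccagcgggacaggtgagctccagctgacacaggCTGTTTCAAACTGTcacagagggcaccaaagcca
Lmnb2, intron peak, chr10:80911393-80911591, minus strand: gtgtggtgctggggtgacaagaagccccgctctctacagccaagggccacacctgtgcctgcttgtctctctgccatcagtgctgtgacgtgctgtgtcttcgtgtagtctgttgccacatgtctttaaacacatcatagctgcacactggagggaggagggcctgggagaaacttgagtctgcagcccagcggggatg
Lbr, peak in Dnah14, chr1:181721117-181721348, minus strand: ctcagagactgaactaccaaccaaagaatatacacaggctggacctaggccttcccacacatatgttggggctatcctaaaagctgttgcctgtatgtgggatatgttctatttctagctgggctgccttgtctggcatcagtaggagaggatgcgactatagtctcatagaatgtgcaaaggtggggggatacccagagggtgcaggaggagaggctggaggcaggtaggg

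The shared peak was strong and the other 3 weak. At the tRNA gene the fold over the local background was 12.0 in the senescent library, with a −log10 q of 18.3, rank 106 of 393 and 22 reads at the summit. In the immortalized library it was 13.8, with a −log10 q of 21.6, rank 49 of 612 and 23 reads. The same place was open in all 4 ATAC-seq libraries. Peaks on tRNA genes, which RNA polymerase III transcribes, were 165 of the 393 peaks (42.0%) and 125 of the 612 (20.4%), so the peak near Hmgb1 belonged to a large class. Without them the senescent library had 0 peaks near the 8 genes.

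The intron of Lmnb2 held a peak with a fold of 5.84, a −log10 q of 3.79, rank 470 of 612 and 7 reads, 6.78 kb from the 5′ end of the gene. The peak assigned to Lbr lay within Dnah14, 122 kb from the 5′ end of Lbr and 99.4 kb from the nearest annotated Lbr TSS. It had a fold of 5.16, rank 529 and 5 reads. The distal Hmgb1 peak lay 102 kb upstream and 0.762 kb from the TSS of Alox5ap, a gene of leukotriene synthesis, with a fold of 4.99, rank 545 and 5 reads. None of these 3 overlapped an ATAC-seq peak in any library. In windows of 181 bp around the summit, the consensus with up to 2 mismatches stood in 7.31% of the senescent peaks and 4.53% of the immortalized peaks.

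**Figure D1:**
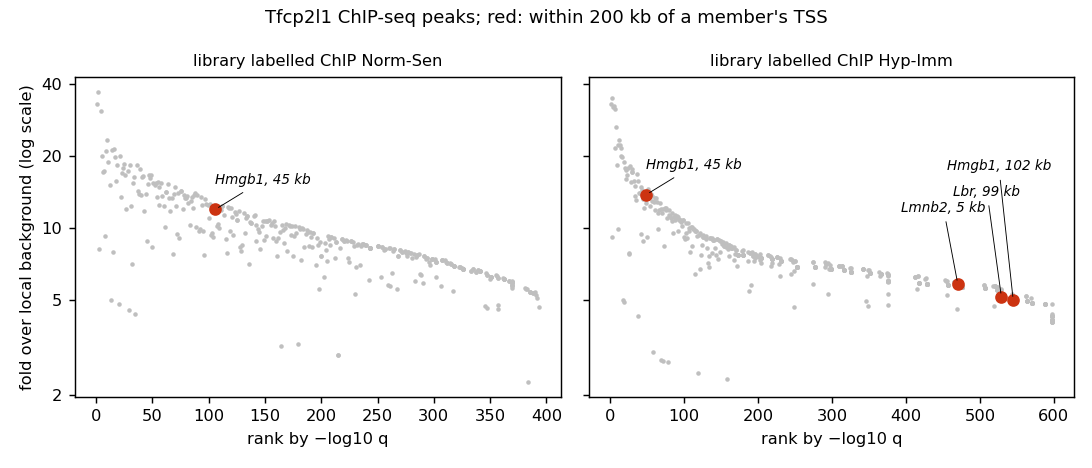
Tfcp2l1 ChIP-seq peaks of the library from senescent MEFs in 20% oxygen (left) and from immortalized MEFs in 3% oxygen (right). Each grey point is a peak, with its rank by −log10 q on the x axis and its fold over the local background on a log y axis, and red points are the peaks within 200 kb of a TSS of one of the 8 genes, with the distance to the nearest TSS of the gene. The peak 44.6 kb from Hmgb1 ranked 106 and 49, and the other 3 ranked 470 to 545 of 612.

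The number of open regions around the 8 genes followed the number of peaks in a library. Of the 91 regions, the library labelled Norm-Pro had 49 and Norm-Sen 37, while Hyp-Pro had 35 and Hyp-Imm 23. With the 37770 strongest peaks of every library the numbers were 35, 30, 27 and 23, in the same order. In 1 library alone stood 63 of the 91 regions, beside 85.6% of all regions, and 9 stood in all 4. Promoter regions (within 1 kb of a TSS of the gene) were found in 1 library alone in 9 of 24 cases, against 54 of 67 for the others. The 2 regions outside the members' promoters that were open in all 4 libraries were the promoters of neighbouring genes, Timm13 next to Lmnb2 and AI413582 next to Hmga1.

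Hmgb1 had the most regions, 21, and Lmnb2 the fewest, 6, where the median protein-coding gene had 6 and the range from the 10th to the 90th percentile was 2 to 14. Hmga2 followed with 18 and Lmna with 13, then Hmgb2 with 11, Lmnb1 with 8, and Lbr and Hmga1 with 7 each. The long genes Hmgb1 (138 kb) and Hmga2 (115 kb) carried most of theirs in introns. Over the 8 genes the library labelled Hyp-Imm had from 1 region (Lmnb1) to 5 (Lmna and Hmgb1).

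**Figure D2:**
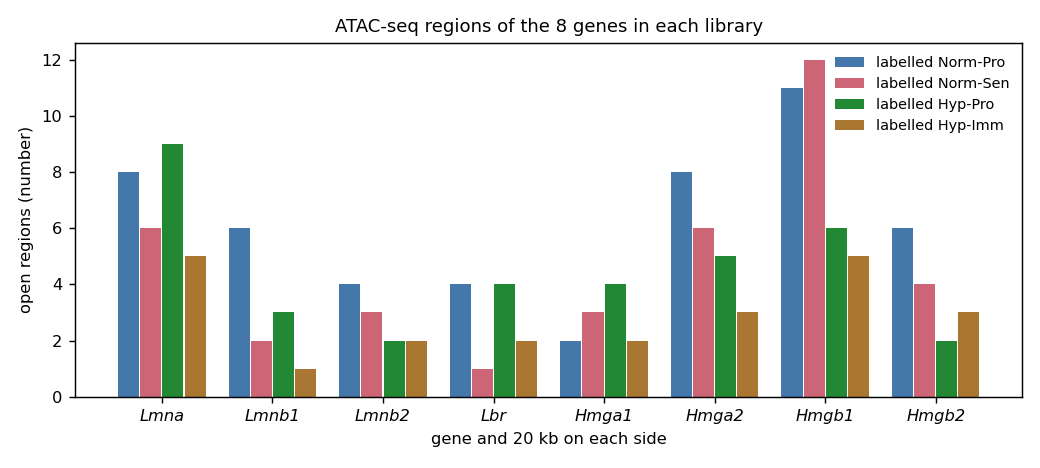
Number of open regions within each gene or 20 kb of it (y axis) in each ATAC-seq library (bars, 1 library per condition). From left to right the bars of Hmgb1 stand at 11, 12, 6 and 5 regions and those of Lmnb1 at 6, 2, 3 and 1.

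A promoter peak was found for 6 of the 8 genes in the library labelled Norm-Pro and for 7 in each of the others. The share of all protein-coding genes with one was 54.8% for Norm-Pro and 53.0% for Norm-Sen, against 49.5% for Hyp-Pro and 35.5% for Hyp-Imm, and 26.8% had one in all 4. Lmna, Lmnb1, Lbr, Hmga2, Hmgb1 and Hmgb2 had a promoter peak in all 4 libraries, Lmnb2 in 2 and Hmga1 in 1. With peaks of −log10 q of at least 5 only 1 gene was left in Hyp-Imm.

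Lmna, the gene of lamins A and C, was open at 3 starts in every library. The inner promoter (chr3:88492951-88493363, in a coding exon of the longer transcripts) had 27, 35, 25 and 16 reads, or relative heights of 1.29, 1.59, 1.47 and 1.60. It was among the strongest peaks of each library, at rank percents of 6.65, 1.41, 5.43 and 3.10. The counting intervals of all 4 overlapped, so its height was not distinguishable between libraries at this depth.

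The middle Lmna promoter (chr3:88503171-88503501) had 19, 19, 24 and 11 reads, with relative heights of 0.905, 0.864, 1.41 and 1.10. It was highest in the library labelled Hyp-Pro, with a ratio of Norm-Pro to Hyp-Pro of 0.641 (0.332 to 1.22) and of Norm-Sen to Hyp-Pro of 0.612 (0.317 to 1.17). Both intervals included 1, but scaled to the genome-wide background the second ratio was 0.428 (0.222 to 0.816).

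The upstream Lmna promoter (chr3:88509990-88510243), at the 5′ end of the gene, turned the other way. It had 30, 33, 12 and 11 reads, or relative heights of 1.43, 1.5, 0.706 and 1.10. In units of the genome-wide background the heights were 24.2, 18.7, 12.55 and 24.7, so Hyp-Imm became the highest while Hyp-Pro stayed the lowest. The ratio of Norm-Sen to Hyp-Imm turned from 1.36 (0.672 to 2.99) to 0.756 (0.3725 to 1.66). The peak was in the strongest 2.32% of both Norm-Pro and Norm-Sen, at 17.6% in Hyp-Imm and at 97.8%, near the end of the list, in Hyp-Pro. The ratio of Norm-Pro to Hyp-Pro was 2.02 (1.01 to 4.34) and that of Norm-Sen to Hyp-Pro 2.13 (1.07 to 4.52). Scaled to the genome-wide background they were 1.93 (0.959 to 4.14) and 1.49 (0.749 to 3.16), whose intervals hold 1, so even this difference depends on the scaling, and with 1 library each it carries no replicate check. The reads at the upstream and middle starts of 1 library can be compared without scaling, and were 30 and 19 in Norm-Pro, 33 and 19 in Norm-Sen, 11 each in Hyp-Imm and 12 and 24 in Hyp-Pro. The library labelled Hyp-Pro, low at this start and high at the middle one, is named Norm-Pro in its file.

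The other 10 regions of Lmna had 9 to 19 reads. A region 4.92 kb past the last annotated start (chr3:88477840-88478043) and one 16.4 kb upstream (chr3:88526309-88526450) were found in the same 3 libraries and not in Hyp-Imm, with 14, 14 and 12 reads and with 19, 19 and 13 reads. A further 3 promoter regions, beside the middle and inner ones, were seen in 1 or 2 libraries with 12 to 19 reads.

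Lmnb1, the gene of lamin B1, had 1 promoter region, open in all 4 libraries. It had 29, 24, 22 and 8 reads, or relative heights of 1.38, 1.09, 1.29 and 0.8. It ranked in the strongest 1.40% of Norm-Pro, 7.42% of Norm-Sen and 3.27% of Hyp-Pro, but at 82.5% in Hyp-Imm. The relative height was lowest in Hyp-Imm, but in units of the genome-wide background it was lowest in Norm-Sen, at 13.6 against 17.98 in Hyp-Imm and 23.4 and 23.0 in Norm-Pro and Hyp-Pro. The ratio of Hyp-Pro to Hyp-Imm was 1.62 (0.694 to 4.2) and that of Hyp-Imm to Norm-Pro 0.579 (0.229 to 1.30), so both intervals held 1. Between Norm-Pro and Norm-Sen the ratio was 1.27 (0.712 to 2.27). The library labelled Hyp-Imm is named Norm-Sen in its file. The smallest summit called at its genome-wide background had 4 reads.

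Apart from its promoter, Lmnb1 had 7 regions, none in Hyp-Imm. A region in the first intron, 1.16 kb past the start, was open in Norm-Pro (16 reads) and Norm-Sen (20 reads). The other 6 were each in 1 library, 4 in Norm-Pro and 2 in Hyp-Pro, with 9 to 14 reads.

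Lmnb2, the gene of lamin B2, was barely open at its own starts. A peak at the 5′ end (chr10:80918219-80918323) was called in the library labelled Norm-Sen alone, with 17 reads and a relative height of 0.773 (0.450 to 1.24). A peak at an inner start (chr10:80906628-80906727) was called in Hyp-Imm alone, with 8 reads and a rank percent of 84.8. The strong regions in its neighbourhood belonged to other genes. The Timm13 promoter had 22, 21, 19 and 14 reads, and the promoter of Gadd45b, a stress-induced gene 11.7 kb upstream, had 28, 30 and 17 reads and no peak in Hyp-Imm.

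Lbr, the gene of the lamin B receptor, had an open promoter in all 4 libraries. Its main promoter region (chr1:181842208-181842665) had 25, 27, 18 and 10 reads, or relative heights of 1.19, 1.23, 1.06 and 1.00. The ratio of Norm-Pro to Norm-Sen was 0.970 (0.540 to 1.74) and of Norm-Sen to Hyp-Imm 1.23 (0.576 to 2.84). Both intervals hold a 1.5-fold change in either direction, and both ratios turn with the other scaling, to 1.32 and 0.68. A second region 0.337 kb inside the gene was open in Hyp-Pro (16 reads) and Hyp-Imm (10 reads) and in neither library labelled as normoxic. The remaining 5 regions of Lbr were each in 1 library, 3 in Norm-Pro and 2 in Hyp-Pro.

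**Figure D3:**
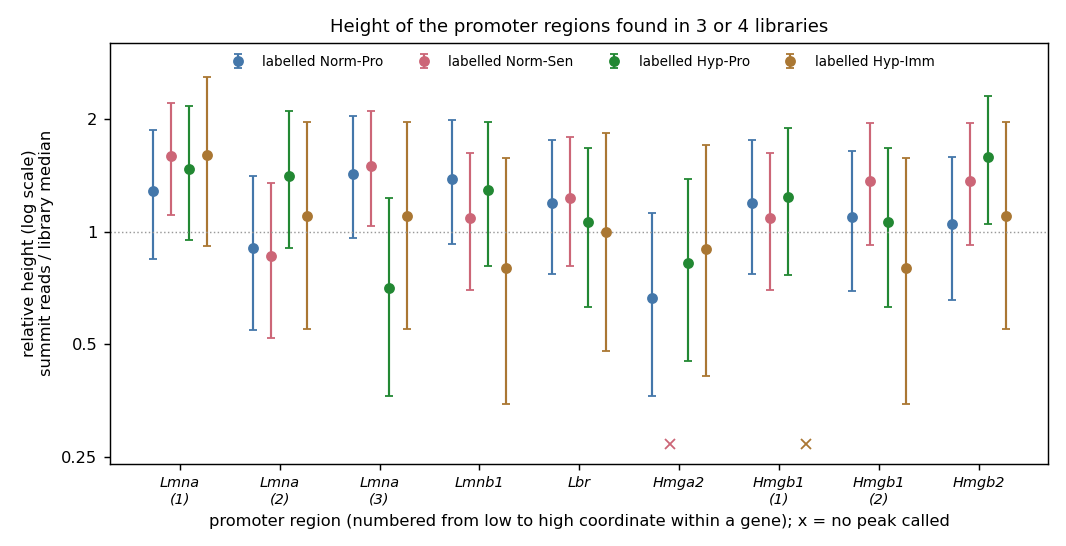
Relative height (summit reads over the library median, log axis) of the 9 promoter regions found in 3 or 4 libraries. Points are single libraries, bars 95% exact Poisson counting intervals, and crosses mark libraries with no peak. For Lmna, region 1 is the inner, 2 the middle and 3 the upstream promoter, and region 3 stands at 0.706 in Hyp-Pro. For Hmgb1, region 1 is the main promoter, without a peak in Hyp-Imm, and region 2 the 5′ start shared with Uspl1.

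Hmgb1, whose protein bends DNA and leaves the nucleus of stressed cells, lacked a peak at its main promoter in 1 library. The main promoter region (chr5:149052990-149053363), with the 3 CCAAT boxes shown above, had 25 reads for Norm-Pro, 24 for Norm-Sen and 21 for Hyp-Pro, with relative heights of 1.19, 1.09 and 1.24. It ranked in the strongest 3.06%, 6.23% and 3.42% of these libraries. In the library labelled Hyp-Imm no peak was called there. That library had a promoter peak for 35.5% of all protein-coding genes, against 49.5% in Hyp-Pro, 53.0% in Norm-Sen and 54.8% in Norm-Pro. At the local background of the other Hmgb1 promoter peak in that library, 0.940 reads, the smallest summit called anywhere had 5 reads, a relative height of 0.5. The relative heights in the other 3 libraries were more than 2 times that value.

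The start at the 5′ end of Hmgb1, shared with Uspl1 on the other strand (chr5:149183934-149184797), was open in all 4 libraries, with 23, 30, 18 and 8 reads and relative heights of 1.10, 1.36, 1.06 and 0.8. The ratio of Norm-Sen to Hyp-Imm was 1.71 (0.764 to 4.30). Scaled to the genome-wide background of each library instead, its log2 ratio changed from 0.77 to −0.083, so its direction depends on the scaling. Since the region covers the starts of both genes, it cannot be assigned to one of them.

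Around the main promoter the libraries labelled Norm-Pro, Norm-Sen and Hyp-Pro had further peaks. Regions at chr5:149051989-149052167 and chr5:149052232-149052492 had 18 and 14 reads in Norm-Pro and 14 and 15 in Norm-Sen. One at chr5:149053436-149053535 had 15 reads in Norm-Pro alone. A region at 0.267 kb inside (chr5:149052645-149052783) had 24 reads in Norm-Sen alone, and another (chr5:149051598-149051977) had 22 reads in Norm-Sen and 14 in Hyp-Pro. A pair of intronic regions, 25.6 kb upstream of the main promoter (chr5:149078946-149079288) and 40.3 kb inside the gene from its 5′ end (chr5:149144055-149144325), were open in the same 3 libraries, with 19, 19 and 15 reads and with 20, 15 and 14 reads. Neither had a peak in Hyp-Imm, whose 4 intronic regions had 5 to 8 reads and were found in no other library.

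Hmgb2, a close relative that is abundant in dividing cells, had 1 promoter region (chr8:57511558-57512024), strong in every library. It had 22, 30, 27 and 11 reads, or relative heights of 1.05, 1.36, 1.59 and 1.10, at rank percents of 3.02, 1.27, 0.892 and 11.0. The ratio of Norm-Pro to Hyp-Pro was 0.660 (0.358 to 1.2), and that of Hyp-Imm to Norm-Pro 1.05 (0.460 to 2.26). Scaled to the genome-wide background, Norm-Sen was the lowest of the 4 in place of Norm-Pro, at 17.0 against 17.8, and Hyp-Pro was highest under both scalings. The other 10 regions had 6 to 16 reads, and 9 of them were found in 1 library alone. The 4 upstream regions of Norm-Pro had 9 reads each.

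Hmga1, which codes for an AT-hook protein, had no peak at its starts in the libraries labelled Norm-Pro, Norm-Sen and Hyp-Imm. In Hyp-Pro a peak 0.788 kb upstream (chr17:27555643-27555776) had 16 reads and a rank percent of 83.3. A region 9.17 kb upstream (chr17:27547219-27547443) was open in Norm-Sen and Hyp-Pro, with 20 reads in each. The region open in all 4 libraries, 9.08 kb past the nearest Hmga1 start (chr17:27565606-27565945), had 28, 25, 20 and 12 reads and is the promoter of AI413582. Both RefSeq promoters of Hmga1, which overlap, held 4 GC boxes each.

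Hmga2, the other HMGA gene and a growth gene of embryonic tissue, had peaks near its start at different places in different libraries. A region 0.757 kb upstream (chr10:120477154-120477298) had 14 reads in Norm-Pro, 14 in Hyp-Pro and 9 in Hyp-Imm and none in Norm-Sen, where 12 reads were the smallest summit called at the local background of its other promoter peak. One in the first intron, 0.849 kb inside (chr10:120475346-120475541), had 18 reads in Norm-Pro and 19 in Norm-Sen. At the start itself and 0.405 kb before it, peaks of 15 and 20 reads were called in Hyp-Pro alone. Of the 11 regions deeper in the introns, from 33.5 to 110.5 kb past the start, 10 were in 1 library alone. The exception, at 54.0 kb (chr10:120422144-120422403), had 20 reads in Norm-Pro and 18 in Norm-Sen.

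**Figure D4:**
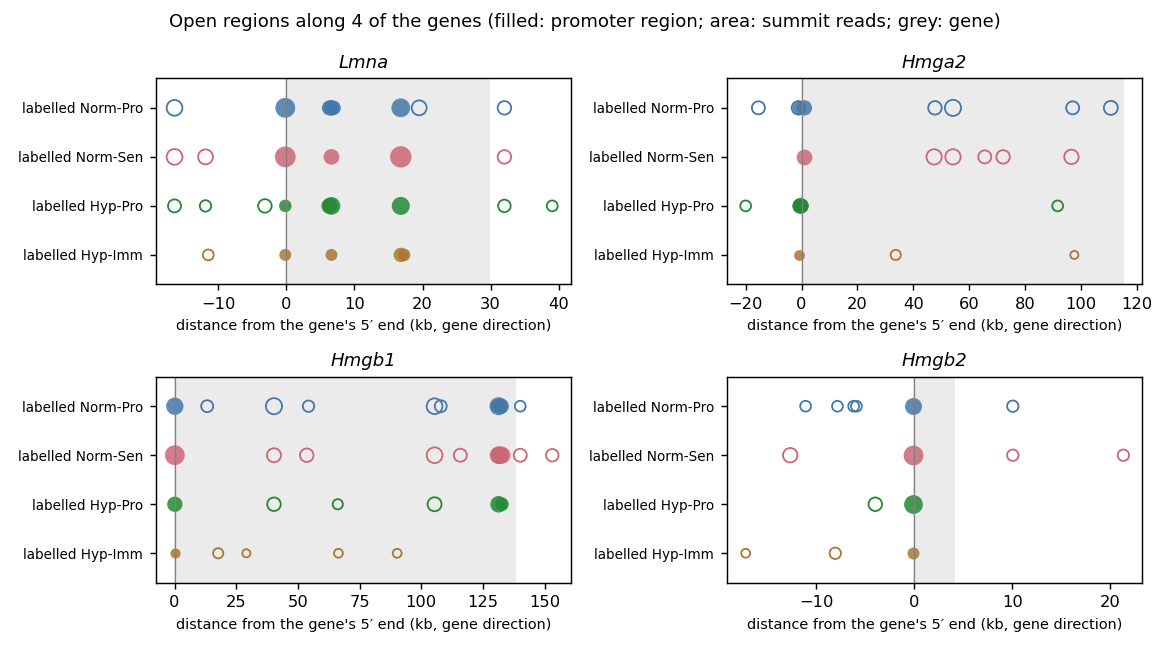
Open regions of Lmna, Hmga2, Hmgb1 and Hmgb2 in each ATAC-seq library (rows) by distance in kb from the 5′ end of the gene (x axis, in the direction of the gene, shaded). Filled circles are promoter regions, open circles other regions, and the area is proportional to the reads at the summit. The main Hmgb1 promoter, near the right end of the shaded gene, has filled circles in 3 rows and none in Hyp-Imm.

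The pairs of libraries show how far the regions of the 8 genes differed between conditions. Between passage 1 and senescence in 20% oxygen, 64 regions were open in either library, 27 of them (42.2%) in Norm-Pro alone of the pair and 15 (23.4%) in Norm-Sen alone. Over all regions these shares were 47.0% and 40.2%. In 3% oxygen 24 of 47 (51.1%) were in Hyp-Pro and not in Hyp-Imm and 12 (25.5%) in Hyp-Imm and not in Hyp-Pro, beside 51.4% and 39.3%.

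Between oxygen levels at passage 1, 32 of 67 regions (47.8%) were in Norm-Pro and not in Hyp-Pro and 18 (26.9%) the reverse, beside 54.4% and 33.0%. For senescent against immortalized cells, 28 of 51 (54.9%) were in Norm-Sen and not in Hyp-Imm and 14 (27.5%) the reverse, beside 58.7% and 32.9%. In these 4 pairs the members' shares were below those of all regions. The comparison was not matched for promoters. Of the members' regions 24 were promoter regions, with 37.5% in 1 library alone against 80.6% of the others. The part of this in the lower shares was not tested. The libraries that the file names give for 2 of these pairs were also set side by side. Norm-Sen and Hyp-Pro had 19 of 54 regions (35.2%) in the first alone and 17 (31.5%) in the second, beside 50.8% and 35.9%, and Hyp-Imm and Norm-Pro had 13 of 62 (21%) and 39 (62.9%), beside 30.0% and 61.9%.

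**Figure D5:**
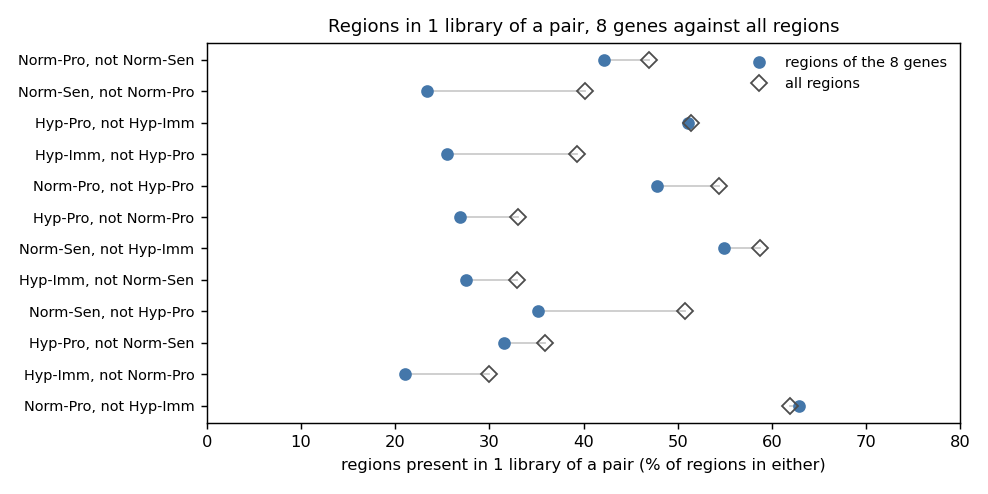
Share of regions present in the first library and not in the second (x axis, percent of the regions in either), for the regions of the 8 genes (filled circles) and for all regions (open diamonds), with 1 pair and direction per row. The circles lie left of the diamonds except for Norm-Pro and not Hyp-Imm, 62.9% against 61.9%.

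The regions found in both libraries of a pair were also compared by relative height, and most of their counting intervals hold a 1.5-fold change. Which regions pass 1.5-fold depends on the scaling, and the counts are for the library median. No member region of 22 differed by 1.5-fold or more between Norm-Pro and Norm-Sen, where 2.74% of all shared regions were higher in Norm-Pro and 9.76% in Norm-Sen. Scaled to the genome-wide background, the ratio of Norm-Pro to Norm-Sen was 1.72 (0.969 to 3.09) at the Lmnb1 promoter. At the Hmgb1 region chr5:149051989-149052167 it was 1.83 (0.862 to 3.98), and both intervals hold 1. Of 11 shared by Hyp-Pro and Hyp-Imm, Lmnb1 was higher in Hyp-Pro and the upstream Lmna promoter in Hyp-Imm, with a ratio of Hyp-Pro to Hyp-Imm of 0.642 (0.259 to 1.61), beside 8.0% and 11.8% of all regions. Of 17 shared by Norm-Pro and Hyp-Pro, the upstream Lmna promoter was higher in Norm-Pro (4.73% of all regions) and the middle one and Hmgb2 in Hyp-Pro (11.0%).

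Of 9 regions shared by Norm-Sen and Hyp-Imm, the 5′ start of Hmgb1 was higher in Norm-Sen and none in Hyp-Imm, beside 6.96% and 11.4%. Scaled to the genome-wide background, the Norm-Sen to Hyp-Imm ratio at this start was 0.944 (0.423 to 2.38). At the inner and middle Lmna promoters it was then past 1.5-fold in favour of Hyp-Imm, at 0.551 (0.297 to 1.07) and 0.435 (0.197 to 1.01). All of these intervals hold 1. Of 18 shared by Norm-Sen and Hyp-Pro, the upstream Lmna promoter was higher in Norm-Sen and the middle one in Hyp-Pro, beside 5.98% and 6.44%. Of 10 shared by Hyp-Imm and Norm-Pro, Lmnb1 was lower in Hyp-Imm, where 18.1% of all regions were higher in Hyp-Imm and 4.87% in Norm-Pro. These pairs share libraries, so their counts are not independent, and the counts hold for the median scaling only.

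Partner genes from 3 lists gave the setting. Of 22 genes of the lamina and nuclear envelope, 22, 22, 18 and 13 had a promoter peak in the 4 libraries, and 12 had one in all, where the shares of all protein-coding genes were 54.8%, 53.0%, 49.5% and 35.5%, lowest in Hyp-Imm as well. Emd (emerin), Zmpste24, the protease that matures lamin A, and Rce1, which trims its CAAX end, were open in Norm-Pro and Norm-Sen and had no peak in Hyp-Pro or Hyp-Imm. Nrm, Syne1, Syne2, Tmem201, Tmem43 and Tmpo lacked a peak in Hyp-Imm alone and Tor1a in Hyp-Pro alone, the last pair named after their values were seen. Emd, like Hmgb3, Hmgn5 and Atrx of the other lists, lies on the X chromosome, whose share of peaks differed between libraries as given above, and the part of that share in these results was not tested.

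Of 10 other HMG genes, 9, 8, 7 and 5 had a promoter peak and 3 had one in all 4. Hmgb4, a testis gene, had none in any library. Hmgxb4 lacked one in both libraries labelled as hypoxic, Hmgb3, Hmgn2 and Hmgn5 in Hyp-Imm, Hmgn3 in Hyp-Pro and Hmgxb3 in Norm-Sen. Of 22 genes of heterochromatin and histone chaperones, 20, 20, 20 and 19 had one and 16 had one in all. Ehmt2, a histone H3K9 methyltransferase, had one in Norm-Pro alone (26 reads) and Atrx in Norm-Sen and Hyp-Imm. Cbx1 (an HP1 protein) and H2afy2 lacked one in Hyp-Imm, H2afy in Norm-Pro and Setdb1 in Norm-Sen.

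Other genes with promoter heights most like those of a member over the 4 libraries were found by the distance of log2 relative heights among the 5873 genes with a promoter peak in all 4. For Lmna these were Ccnyl1 (distance 0.0849) and Sf1 (0.110), for Lmnb1 Phldb1 (0.0671) and Cramp1l (0.103), and for Lbr Apaf1 and Ikbip (0.0772 each). For Hmga2 they were 5730409E04Rik (0.0740) and Cops7a (0.108), for Hmgb1 Sptbn1 (0.145) and Ccdc148 (0.163), and for Hmgb2 Rassf8 (0.00) and Mapkapk2 (0.0545). Between 21 genes (Lmnb1) and 96 genes (Lbr) lay within 0.25 of a member, so 4 values do not single out a pattern. The value of a gene in a library is that of its highest promoter peak there. For Lmna, Hmga2 and Hmgb1 the 4 values therefore come from different promoter regions.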

How the data were processed

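Open chromatin was measured by ATAC-seq in 4 libraries of MEFs and Tfcp2l1 binding by ChIP-seq in 2, with 1 library per condition. For ATAC-seq the authors used Bowtie2 with the GRCm38 (mm10) genome, dropped pairs over 2 kb apart and corrected read starts for the Tn5 cut. MACS2 then called the peaks of each library separately, with an FDR of 0.05. The ChIP-seq notes name Bowtie and MACS2, and those peaks were deposited at a q limit of 0.01. The deposited fold is the ratio of summit reads to local background after 1 read is added to each. This holds for every fold given above. The deposited −log10 p and −log10 q, by the authors' MACS2, are within a library, and the deposited score is a rescaled −log10 q and was not used.

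Summit reads and background were solved from fold and −log10 p, within 0.001, for 100% of peaks, tested on simulated data. For more than 99.5% of the peaks in each library 1 whole number met this tolerance. Overlapping or touching peaks were merged into regions. Annotation was GENCODE M21. Alternatives covered the peak threshold, equal peak numbers, windows, overlap, scaling and the conditions by the file names.

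All 8 members were named. List genes lacking a promoter peak in a library were named up to 8 per list, fewest libraries first, along with neighbours starting within 1 kb of a region and the 2 genes nearest in height per member. The members and lists were chosen with earlier results of these data known. No gene expression was measured, and Python 3.11 with pandas 2.3.3 and scipy 1.17.1 was used.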

Additional observations from a re-analysis of the deposited data

How the results depend on the processing

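With 1 library per condition and summits of 5 to 35 reads, ratios below about 2 could not be told from counting error. No paired analysis was possible because each condition had 1 library.

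By the file names, the regions numbered 23 in Norm-Sen and 49 in Hyp-Imm. Regions in 1 library of a pair became 15 (Hyp-Pro, not Hyp-Imm), 27 (the reverse), 17 (Norm-Pro, not Hyp-Pro), 13 (Norm-Sen, not Hyp-Imm) and 39 (the reverse). Envelope genes with a promoter peak became 13 in Norm-Sen and 22 in Hyp-Imm, and other HMG genes 5 and 9. The log2 ratio reversed for Lmnb1 (Hyp-Pro over Hyp-Imm, −0.34), Hmgb1 (Norm-Sen over Hyp-Imm, −0.57) and Hmgb2 (Norm-Pro over Hyp-Pro, 0.22). These ratios take the highest promoter peak of a gene in each library. For Hmgb1 the value sets the 5′ start in one library against the main promoter in the other. At the 5′ start alone the log2 ratio of the same libraries was −0.45. Relative to the genome-wide background the log2 ratio of Norm-Sen over Hyp-Imm turned to −0.083 for Hmgb1, −0.40 for Lmnb1, −0.56 for Lbr and −0.54 for Hmgb2, and moved to −0.86 for Lmna. Of the members' promoter regions, 7 of 11 turned in direction for Norm-Pro over Norm-Sen, 5 of 7 for Norm-Sen over Hyp-Imm, 4 of 9 for Norm-Sen over Hyp-Pro, 1 of 9 for Hyp-Pro over Hyp-Imm, 1 of 10 for Norm-Pro over Hyp-Pro and 2 of 8 for Hyp-Imm over Norm-Pro.

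At −log10 q of at least 5, the regions were 18 in Norm-Pro, 16 in both Norm-Sen and Hyp-Pro, and 3 in Hyp-Imm. The median −log10 q over all peaks was lowest in Hyp-Imm, at 2.91, and no share of all regions at this limit is given. Those in 1 library of a pair were 6 and 4 (Norm-Pro, Norm-Sen), 15 and 2 (Hyp-Pro, Hyp-Imm), 9 and 7 (Norm-Pro, Hyp-Pro) and 15 and 2 (Norm-Sen, Hyp-Imm). Members with a promoter peak in Hyp-Imm were 1, envelope genes 14 in Norm-Sen and 7 in Hyp-Imm, other HMG genes 4 in Hyp-Pro and heterochromatin genes 9 in Hyp-Imm. ChIP-seq peaks in Hyp-Imm were 1.

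With equal peak numbers 20 regions were in Norm-Pro and not Hyp-Pro. Within 50 kb, Norm-Sen had 59 regions, and the pairs gave 42 and 32 (Norm-Pro, Norm-Sen), 37 and 19 (Hyp-Pro, Hyp-Imm), 47 and 22 (Norm-Sen, Hyp-Imm) and 31 (Hyp-Pro, not Norm-Pro). Within 500 kb the senescent ChIP-seq library had 2 peaks. Within 200 kb, without peaks on tRNA genes, it had 0. The causes were not tested.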
